A study of Rattus norvegicus with 9 samples.

Results

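The transcripts described here are 6 genes of the neurotrophin and GDNF (glial cell line-derived neurotrophic factor) systems, chosen by gene symbol: the ligands Bdnf, Ntf3 and Gdnf, and the receptors Ngfr, Ntrk2 and Ntrk3. All 6 were among the 19085 genes of the count table, and 4 of them (Bdnf, Gdnf, Ngfr and Ntrk2) passed the filter on low counts together with 13256 genes in all. Ntf3 and Ntrk3 did not pass it and are given by their counts. Messenger RNA was sequenced from primary osteoblasts, the bone-forming cells, of newborn male Sprague-Dawley rats. There were 3 groups of 3 libraries, all after 7 days in osteogenic induction medium, which holds serum, β-glycerophosphate, ascorbic acid and dexamethasone: the control group had the medium alone, the thrombin group had thrombin at 20 U/mL, and the PD03 group had the same thrombin dose with PD03 (PD0325901, an inhibitor of the kinase MEK) at 0.1 μM. PD03 was given only with thrombin, so its effect in cells without thrombin was not measured.

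The tissue field of the labels reads knee, although the growth protocol gives the calvaria, the roof of the skull, as the source, and 1 protocol label gives the PD03 dose in millimolar where the design text gives micromolar. The study's methods call the samples of a group independent but do not say whether they came from separate animals or cultures, so the p-values measure the spread between these libraries, which may be technical. Each library held between 15447832 and 19841468 counts. Of 9 osteoblast markers 6 passed the filter, with summed levels of 60700 to 66500 CPM (reads of a gene scaled to a common library size) in the control libraries, 55800 to 59100 in the thrombin libraries and 95100 to 98300 in the PD03 libraries. Nearly all of each sum was Col1a1 and Col1a2. Runx2 (42.8, 51.1 and 32.1 CPM on average in the control, thrombin and PD03 groups) and Spp1 (63.7, 185 and 53.1 CPM) had another order, highest with thrombin and lowest with PD03. Alpl (1.67, 0.345 and 3.11 CPM) had the order of the sum, on few counts, with 6 in each thrombin library. Sp7 (4.25, 6.20 and 4.95 CPM) was highest with thrombin and lowest in control. The late markers Bglap, Ibsp and Dmp1 had at most 5 counts in any library, and Ibsp and Dmp1 had none in the thrombin group.

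Neurotrophins are secreted growth factors that keep sensory and sympathetic neurons alive and guide their axons. Each is made as a precursor that proteases cleave. The mature forms bind tyrosine kinase receptors of the Trk family: Bdnf and Ntf4 bind TrkB (Ntrk2), and Ntf3 prefers TrkC (Ntrk3). The receptor p75NTR (Ngfr) binds neurotrophins and, with sortilin, their precursors. Trk receptors signal through the Ras, MEK and ERK cascade, the one that PD03 blocks, and through PI3K and phospholipase C gamma. Gdnf and its relatives bind a GFRα coreceptor, and the pair then engages the kinase Ret or the adhesion molecule Ncam1. Sensory and sympathetic nerve fibres run through bone, where neurotrophic factors made by resident cells are known to act on them.

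Sequence upstream of the transcription start is shown for the ligands because CREB, the cAMP-response-element-binding protein, is a known activator of Bdnf through its core motif, and AP-1 is a known nuclear endpoint of ERK signalling. RefSeq start-site windows of the rat assembly GRCr8 were at hand for 3 of the 6 genes: 6 windows for Bdnf, which has several alternative first exons, 3 for Ntf3 and 1 for Gdnf. In the 100 bases before the start printed here, 5′ to 3′ on the strand of the gene, capitals mark the CRE core, TGACG read on the opposite strand, and in Gdnf also the TATA box TATAAA. The Bdnf stretch lies on the plus strand at chr3:116637758-116637857 and the Gdnf stretch on the plus strand at chr2:58621227-58621326.
Bdnf, window 4: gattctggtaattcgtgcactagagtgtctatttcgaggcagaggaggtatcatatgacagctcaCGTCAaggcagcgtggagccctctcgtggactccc
Gdnf, window 1: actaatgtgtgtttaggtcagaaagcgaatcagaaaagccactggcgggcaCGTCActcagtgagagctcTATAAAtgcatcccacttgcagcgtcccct

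The 250 bases before each start were searched on both strands. The CRE core ended 31 bases before the start in Bdnf window 4 and 45 bases before the start in Gdnf. The stretches printed above were picked because they hold it. No other window of these 3 genes, which have 6 (Bdnf), 3 (Ntf3) and 1 (Gdnf), held the core. It was in 18.2% of all 33469 windows in the table. The TATA box of Gdnf ended 25 bases before the start, and 12.9% of the windows held this motif. The AP-1 motif TGANTCA was in 1 Bdnf window, window 3, ending 146 bases before the start, against 6.34% of windows. The full CRE, TGACGTCA, which contains the core, was in none of the windows of these 3 genes and in 1.59% of all windows. TATAAA was also found once at the far end of Bdnf window 2. A match describes letters only, and the counts per gene do not show which Bdnf start was used.

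Ntrk2, which encodes TrkB, the receptor for Bdnf, changed in all 3 comparisons. Its level with thrombin was 2.00-fold lower than in control, and it was far above both other groups in the PD03 group. The control libraries held 7.61, 6.50 and 6.44 CPM (6.85 ± 0.66, SD, n = 3). The thrombin libraries held 2.68, 4.11 and 3.50 CPM (3.43 ± 0.721). The PD03 libraries held 22.3, 20.9 and 22.3 CPM (21.8 ± 0.793). Every thrombin library lay below every control library, and every PD03 library lay above all 6 others. These levels rested on 45 to 75 counts per thrombin library and on 323 to 421 counts per PD03 library.

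On the log2 scale Ntrk2 fell by 0.997 in the thrombin group against control (edgeR quasi-likelihood test, SE 0.153, adjusted p = 1.3e-06). From the thrombin to the PD03 group it rose by 2.66 (SE 0.131, 6.33-fold, 95% interval 5.27 to 7.61, adjusted p = 7.6e-21). Against control it was 3.17-fold higher in the PD03 group (log2 1.67, SE 0.118, 95% interval 2.69 to 3.75, adjusted p = 2.1e-15), so its level with thrombin and PD03 together was not that of untreated cells. A gene was called changed at an adjusted p below 0.05 with an absolute log2 fold change above 0.58. The rises in the PD03 group were called under all 21 alternative settings. The fall with thrombin was called in all but 2 of the 21, a log2 threshold of 1 and limma on log2(FPKM + 1), where it was -0.35. The 3 comparisons share libraries and are not independent of each other.

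The gene count of Ntrk2 does not separate full-length TrkB from the known truncated forms that lack the kinase. In bulk RNA, fewer cells with a transcript and less of it per cell cannot be told apart, here or for any gene that follows. Ntrk2 is also expressed by glia and neurons, so markers of those cells were summed. The 9 markers of Schwann cells and glia, of which 3 passed the filter, summed to 7.18 to 8.71 CPM in the control libraries, 5.53 to 7.07 in the thrombin libraries and 8.95 to 10.7 in the PD03 libraries. The sums ran in the same order as Ntrk2, with a smaller spread between the groups, although Gfap did not, with 7 to 9 counts in a control library, 6 to 19 with thrombin and 2 to 7 with thrombin and PD03. Cdh19 was at 0 in the thrombin group, and the defining gene Sox10 had between 0 and 13 counts in any library. The neuron markers, 6 of 7 in the table, summed to 76.4 to 77.9, 81.2 to 88.1 and 111 to 114 CPM in the control, thrombin and PD03 libraries. Within that sum Tubb3 stood at 41.7, 58.1 and 95.9 CPM on average, while Stmn2 ran the other way, at 34.3, 24.1 and 15.7 CPM. Rbfox3 was at 0 in the control group and Elavl4 in the PD03 group. The 5 adipocyte markers, of which 2 passed the filter, had sums in the same order as Ntrk2, at 1.69 to 2.53, 0.329 to 0.933 and 4.90 to 7.45 CPM, and their defining gene Adipoq was at 0 in the PD03 group. Lep (0.677, 0.0754 and 4.54 CPM on average) had that order, while Pparg (1.22, 0.331 and 1.13 CPM) was not above control in the PD03 group and Fabp4 (0.244, 0.155 and 0.0989 CPM) was lowest there. The mural markers summed to 1000 to 1120, 1090 to 1140 and 1840 to 1880 CPM, and the endothelial markers, 3 of 5 in the table, to 6.69 to 7.77, 6.31 to 8.51 and 11.1 to 12.6 CPM, so both sums were highest in the PD03 libraries. Acta2 (627, 526 and 1460 CPM on average) made up most of the mural sum there, while Pdgfrb (394, 503 and 308 CPM) was lowest in the PD03 group. The 6 myeloid markers summed to 2.98 CPM at most. The part of these cells in the Ntrk2 result was not tested.

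**Figure D1:**
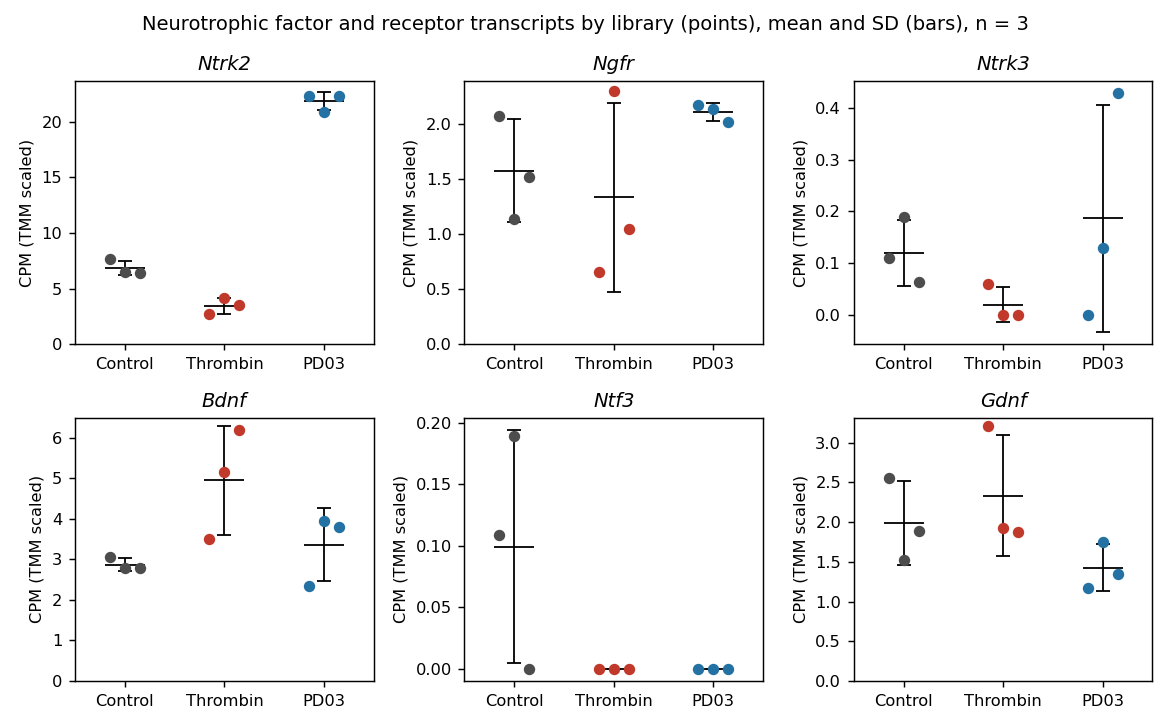
Level of each of the 6 genes in CPM, scaled between libraries by TMM, for the control, thrombin and PD03 groups, with 1 point per library and bars for the mean and SD (n = 3). Ntrk2 lies between 20.9 and 22.3 CPM in the PD03 libraries, above every other library, and Ntf3 is at 0 in all thrombin and PD03 libraries.

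Ngfr, the gene of p75NTR, was low and was not called in any comparison. The control libraries held 2.07, 1.14 and 1.52 CPM (1.57 ± 0.468, SD, n = 3). The thrombin libraries held 0.654, 2.30 and 1.05 CPM (1.34 ± 0.861), a spread that covered the whole control range. The PD03 libraries were close together at 2.17, 2.14 and 2.02 CPM (2.11 ± 0.0796). The second thrombin library was the highest of all 9 and stood apart from the other two of its group, while the PD03 libraries overlapped with both other groups.

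The log2 difference of Ngfr between the thrombin and control groups was -0.23 (95% interval -0.92 to 0.46, adjusted p = 0.67), and without control replicate 1 or thrombin replicate 1 it changed sign, to 0.03 and 0.09. For PD03 against thrombin it was 0.64 (95% interval -0.02 to 1.30, adjusted p = 0.10). Without thrombin replicate 2 it was 1.29 (adjusted p = 0.0039), past both thresholds, and limma voom gave 0.82 (adjusted p = 0.041); over all alternatives the adjusted p ran from 0.0039 to 1. For PD03 against control it was 0.41 (95% interval -0.24 to 1.06, adjusted p = 0.33). These values rested on 11 to 42 counts per library.

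Ntrk3, the TrkC gene, was near the limit of detection. Its counts were 2, 3 and 1 in the control libraries, 1, 0 and 0 in the thrombin libraries and 0, 2 and 7 in the PD03 libraries. The summed counts of 9 in the PD03 group and 1 in the thrombin group gave a ratio of 9.28 with a 95% counting interval of 1.29 to 407. PD03 replicate 3 supplied 7 of those 9 counts. In a fit without the filter the adjusted p of this comparison was 0.13, and those of the thrombin and PD03 groups against control were 0.37 and 0.78. The counting interval covers counting error only and not the spread between libraries.

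Bdnf, the ligand of TrkB, rose with thrombin. The control libraries held 3.05, 2.78 and 2.78 CPM (2.87 ± 0.154, SD, n = 3). The thrombin libraries held 3.51, 5.15 and 6.18 CPM (4.95 ± 1.35). The PD03 libraries held 2.33, 3.95 and 3.8 CPM (3.36 ± 0.894). The thrombin libraries all exceeded the control libraries, while the PD03 libraries overlapped with both other groups.

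Bdnf rose 1.72-fold with thrombin (log2 0.78, SE 0.215, 95% interval 0.35 to 1.22, adjusted p = 0.0044). The call rested on thrombin replicate 3, without which the log2 change was 0.60 (adjusted p = 0.068). Over the alternatives that test for any change the adjusted p ran from 0.00047 to 0.068. With glmTreat, which tests for a change beyond log2 0.58, it was 0.92. The log2 difference between the PD03 and thrombin groups was -0.58 (SE 0.211, 95% interval -1.001 to -0.15, adjusted p = 0.021), at -0.576 just inside the fold threshold and so not called. It was called under 10 of the 21 alternatives. Scaling by library totals gave -0.67 (adjusted p = 0.0067) and RLE scaling -0.582 (adjusted p = 0.019). The fit without the filter gave -0.594 (adjusted p = 0.0073) and limma voom -0.589 (adjusted p = 0.023). These passed the fold threshold, while DESeq2 at -0.577 (adjusted p = 0.042) did not. Leaving out single libraries moved this difference between -0.78 and -0.36. It passed the fold threshold without control replicate 2 or 3 (-0.59 each), thrombin replicate 1 (-0.78), PD03 replicate 2 (-0.72) or PD03 replicate 3 (-0.68). Against control, the PD03 group differed by log2 0.21 (95% interval -0.25 to 0.67, adjusted p = 0.50).

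Ntf3, which encodes neurotrophin-3, was found only in control libraries, with 2, 3 and 0 counts. It had no count in the 3 thrombin libraries or in the 3 PD03 libraries. A count of 0 over a group allows up to 3 counts, or 0.0575 CPM with thrombin and 0.0592 CPM with thrombin and PD03. The 95% counting intervals of the ratio to control ran from 0 to 1.05 for the thrombin group and from 0 to 1.08 for the PD03 group, so they include no difference. In the fit without the filter the adjusted p values were 0.20 and 0.17, so 5 counts against none did not pass the test.

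Gdnf, a ligand for GFRα1 and Ret that supports dopaminergic, motor and enteric neurons, was lower with thrombin and PD03 than with thrombin alone. The control libraries held 2.56, 1.52 and 1.89 CPM (1.99 ± 0.527, SD, n = 3). The thrombin libraries held 3.21, 1.92 and 1.87 CPM (2.33 ± 0.762). The PD03 libraries held 1.17, 1.75 and 1.35 CPM (1.42 ± 0.298). All PD03 libraries lay below all thrombin libraries, by a margin as narrow as 1.75 against 1.87 CPM, and the control libraries overlapped with both groups.

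The log2 difference of Gdnf between the PD03 and thrombin groups was -0.72 (SE 0.295, 95% interval -1.32 to -0.13, adjusted p = 0.039). The call was lost without thrombin replicate 1 (-0.44, adjusted p = 0.28), PD03 replicate 1 (-0.59, adjusted p = 0.14) or PD03 replicate 3 (-0.69, adjusted p = 0.088). It was also lost with DESeq2 (-0.73, adjusted p = 0.062) and limma voom (-0.69, adjusted p = 0.055). With single libraries left out the adjusted p ran from 0.025 to 0.28. Over all alternatives, which include glmTreat, it ran from 0.016 to 0.90. Between the thrombin and control groups the difference was 0.21 (95% interval -0.35 to 0.78, adjusted p = 0.63), and it was -0.08 without thrombin replicate 1. For PD03 against control it was -0.51 (95% interval -1.12 to 0.10, adjusted p = 0.19). The 22 to 54 counts per library limit the precision of all 3 values.

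**Figure D2:**
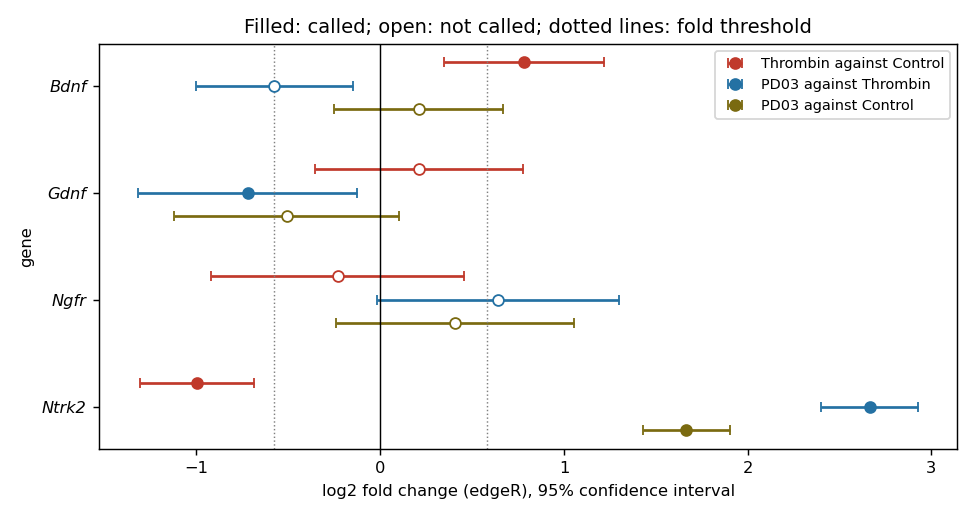
Log2 fold change from edgeR (x axis) with its 95% confidence interval for the 4 tested genes (y axis) in the 3 comparisons. Filled points were called and open points were not, and dotted lines mark the fold threshold of 0.58. All 3 Ntrk2 points are filled, from -0.997 to 2.66, while Ngfr has none.

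Of the 4 tested genes 2 were called between the thrombin and control groups, Bdnf higher and Ntrk2 lower. Of all tested genes 8.06% were called there, 2.62% higher and 5.44% lower. From the thrombin to the PD03 group 2 were called, Ntrk2 higher and Gdnf lower, where 15.9% of all tested genes were called, 9.61% higher and 6.31% lower. For PD03 against control Ntrk2 alone was called, where 8.97% of all tested genes were called, 4.90% higher and 4.07% lower. Scaled by library totals, the split over all genes was 1022 higher and 1176 lower from thrombin to PD03, in place of 1274 and 836, and 470 higher and 907 lower from control to PD03, in place of 649 and 540. Ntrk2 was above its control level in the PD03 group, and Bdnf and Gdnf had no called difference there. With 4 genes tested, these counts describe the genes and carry no test as a group.

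**Figure D3:**
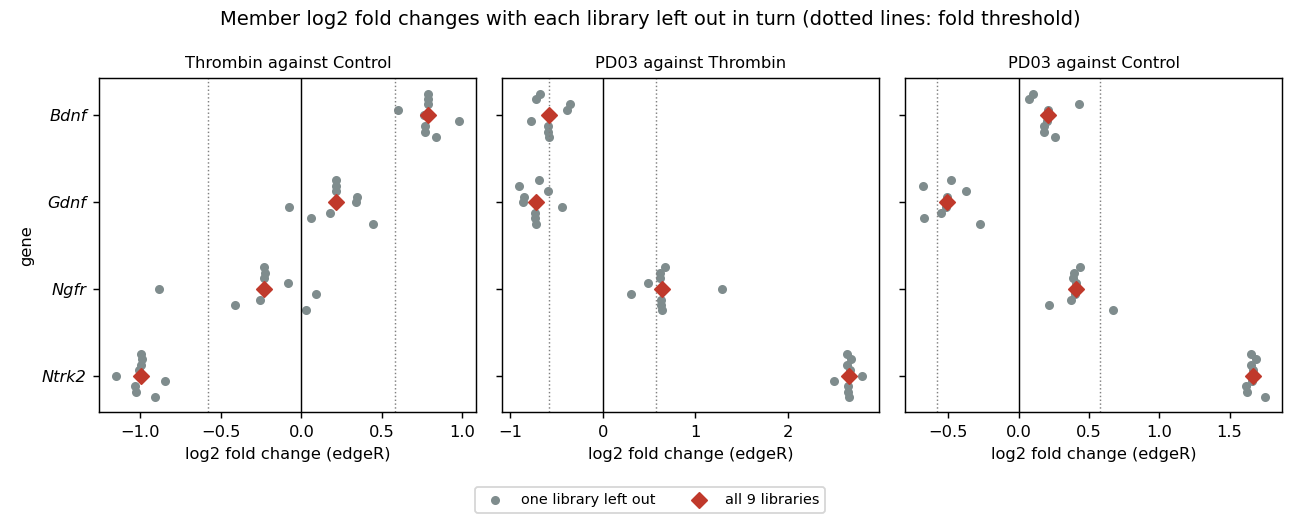
Log2 fold change (x axis) of the 4 tested genes (y axis) in each comparison with all 9 libraries (diamonds) and with each library left out in turn (grey points); dotted lines mark the fold threshold of 0.58. Ntrk2 stays between 2.51 and 2.81 for PD03 against thrombin, while Ngfr ranges from 0.31 to 1.29.

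Levels were compared between genes on the deposited FPKM (a fragment count scaled to library size and gene length), which corrects for length. The order of the genes thus depends on the annotated lengths, whose release was not given. In CPM, which does not correct for length, Gdnf (1.99) was below Ntrk2 (6.85) and Bdnf (2.87) in the control group. In the control group Gdnf was the highest of the 6 at 2.78 ± 0.763 FPKM, followed by Ntrk2 at 0.724 ± 0.0769, Ngfr at 0.495 ± 0.152 and Bdnf at 0.487 ± 0.031 (SD, n = 3). The libraries of Ngfr and Bdnf overlapped there. In the thrombin group Gdnf at 3.22 ± 1.06 FPKM was followed by Bdnf at 0.83 ± 0.224, Ngfr at 0.414 ± 0.267 and Ntrk2 at 0.358 ± 0.075. Bdnf overlapped with Ngfr, and Ngfr with Ntrk2. In the PD03 group Ntrk2 at 2.13 ± 0.0729 FPKM and Gdnf at 1.83 ± 0.388 overlapped, and both were above Ngfr at 0.611 ± 0.0244 and Bdnf at 0.526 ± 0.14, which also overlapped. Ntf3 and Ntrk3 were the lowest in every group, at no more than 0.0551 FPKM on average. The level of the receptor Ntrk2 was thus below that of its ligand Bdnf in all thrombin libraries (0.28 to 0.429 against 0.59 to 1.03 FPKM) and above it in the control and PD03 libraries.

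Other ligands of both families were measured beside these. Ntf4, which also binds TrkB, stood at 0.91, 0.748 and 1.05 CPM on average in the control, thrombin and PD03 groups and was not called. Its log2 differences were -0.29 for thrombin against control (95% interval -1.10 to 0.51, adjusted p = 0.64) and 0.48 from thrombin to PD03 (95% interval -0.30 to 1.27, adjusted p = 0.31).

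Among the relatives of Gdnf, Artn, artemin, a survival factor of sensory and sympathetic neurons, rose with thrombin from 15.1 ± 1.33 to 26.0 ± 2.63 CPM (log2 0.78, SE 0.095, adjusted p = 1e-08). In the PD03 group it was back at 14.9 ± 1.45 CPM (log2 -0.81 against thrombin, SE 0.095, adjusted p = 1.8e-09). Pspn, persephin, was not called, at 1.64 to 1.81 CPM on average, and Nrtn did not pass the filter. Of the 3 tested GDNF ligands 1 rose with thrombin and 2 (Artn and Gdnf) were lower for PD03 than for thrombin alone, where 2.62% and 6.31% of all tested genes were called in those directions. DESeq2 and limma voom each called 1 of the 3 lower there, without Gdnf. None was called between the PD03 and control groups by edgeR, DESeq2 or limma voom, and none had an unadjusted p under 0.05. Of all tested genes edgeR called 8.97% there.

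The coreceptor Gfra2, which prefers neurturin, fell with thrombin from 22.9 ± 1.74 to 9.43 ± 1.33 CPM (log2 -1.28, SE 0.103, adjusted p = 1.1e-13). It stood at 37.2 ± 3.84 CPM in the PD03 group, above the thrombin group (log2 1.99, SE 0.097, adjusted p = 6.3e-21) and above control (log2 0.71, SE 0.086, adjusted p = 6.6e-09), so its means had the same order as those of Ntrk2. Sort1, sortilin, the partner of p75NTR in binding precursors, was 2.21-fold higher for PD03 than for thrombin alone (129 ± 2.13 against 58.3 ± 1.39 CPM, adjusted p = 4.9e-23) and 2.01-fold higher than in control (64.2 ± 1.46 CPM, adjusted p = 7.1e-21). Gfra1, the preferred coreceptor of Gdnf, stood at 2.90, 3.17 and 2.33 CPM on average in the control, thrombin and PD03 groups and was not called. Ncam1 rose with thrombin from 99.3 to 158 CPM (log2 0.67, adjusted p = 2.6e-15). The kinase gene Ret had 1, 2 and 14 counts over the control, thrombin and PD03 groups and did not pass the filter.

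Lingo1, a coreceptor of p75NTR, and Gfra4, the persephin coreceptor, were called higher for PD03 than for thrombin on few counts, and both calls rested on single libraries. For Lingo1 the log2 change was 1.26 (adjusted p = 0.021), and 0.98 (adjusted p = 0.12) without thrombin replicate 2 and 0.82 (adjusted p = 0.22) without PD03 replicate 1. For Gfra4 it was 1.16 (adjusted p = 0.011), and 0.99 (adjusted p = 0.064) and 1.05 (adjusted p = 0.053) without the same libraries. Of 6 tested neurotrophin receptors and coreceptors, then, 1 was lower with thrombin, 3 were higher for PD03 than for thrombin and 2 were higher for PD03 than for control, against 5.44%, 9.61% and 4.90% of all tested genes called in those directions. Of 4 tested GDNF receptors the counts were 1 higher and 1 lower with thrombin, 2 higher for PD03 than for thrombin and 1 higher for PD03 than for control, read against those shares and 2.62% called higher with thrombin.

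**Figure D4:**
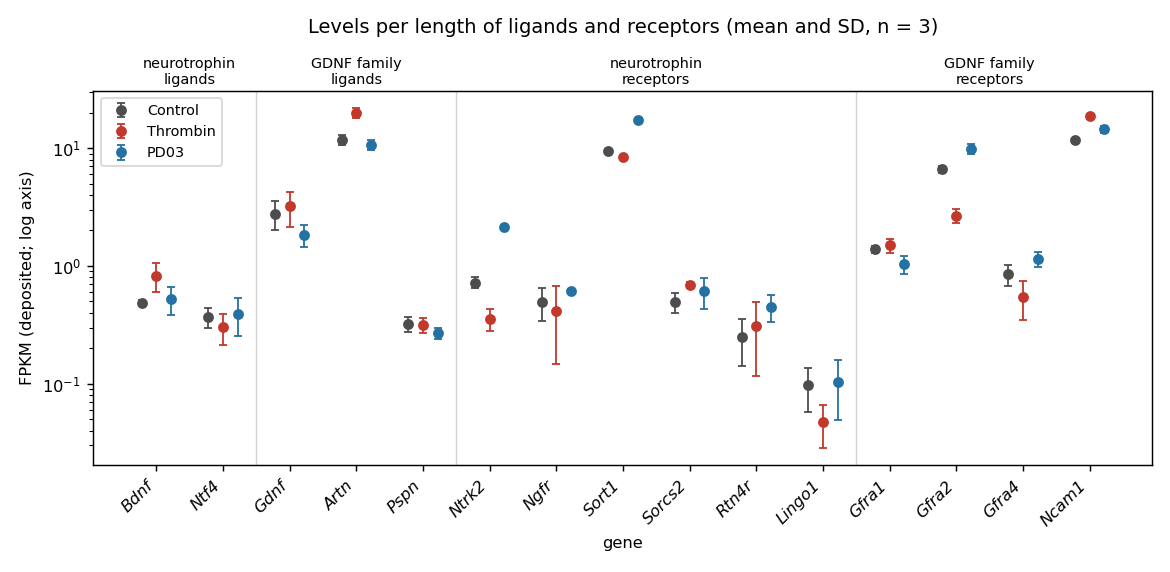
Deposited FPKM on a log axis (y) of ligands and receptors of the neurotrophin and GDNF families (x), as mean and SD (n = 3) for the control, thrombin and PD03 groups. Artn is highest in the thrombin group, at 19.9 FPKM, while Ntrk2, Sort1 and Gfra2 are highest in the PD03 group, at 2.13, 17.4 and 9.89 FPKM.

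Proteases, adaptors and partner proteins were listed beside the ligands and receptors. Of 6 tested genes for cleaving precursors, Pcsk6, a proprotein convertase, fell with thrombin from 13.5 to 7.82 CPM (log2 -0.78, adjusted p = 3.2e-06) and stood at 15.5 CPM in the PD03 group (log2 0.99 against thrombin, adjusted p = 6.6e-09). Mmp3, a matrix metalloproteinase named after its values were seen, was called higher with thrombin by edgeR (3.03 ± 0.749 against 1.84 ± 0.758 CPM, log2 0.73, adjusted p = 0.046) with overlapping libraries, and DESeq2 did not call it. Its call was lost without control replicate 1 (0.54, adjusted p = 0.22) or 2 (0.60, adjusted p = 0.17) and without thrombin replicate 2 (0.77, adjusted p = 0.068) or 3 (0.52, adjusted p = 0.26). With thrombin edgeR thus called 2 of the 6 and DESeq2 1, where edgeR called 8.06% of all tested genes. None was called between the PD03 and control groups by edgeR, DESeq2 or limma voom, while 3 had an unadjusted p under 0.05. Of 15 tested adaptors of Trk signalling none was called with thrombin by edgeR, DESeq2 or limma voom, with 7 at an unadjusted p under 0.05. From the thrombin to the PD03 group 1 adaptor was higher and 2 were lower, 20% of the 15 against 15.9% of all tested genes. Among the lower was Sh2b2, an SH2 adaptor of receptor kinases (5.33 against 10.8 CPM, log2 -1.01, adjusted p = 1.7e-07). Sh2b2 was the 1 adaptor called against control in the PD03 group (log2 -1.21, adjusted p = 4.4e-09). Of 5 tested partners of p75NTR none was called in any comparison by the same 3 tools, and 2, 4 and 4 had an unadjusted p under 0.05 with thrombin, from thrombin to PD03 and from control to PD03. Over all tested genes edgeR called 8.06%, 15.9% and 8.97% in these comparisons. The counts for the adaptors and partners lie near those shares and describe the genes only.

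Genes known to respond to Trk and ERK signalling were lower in the PD03 group in 7 of 10 tested cases against thrombin and in 7 of 10 against control, with none called higher. Over all tested genes 6.31% and 4.07% were called lower. DESeq2 called 6 and 6 of the 10 lower, and limma voom 6 and 7. The median log2 fold changes were -0.99 and -1.22. Egr1, an immediate early transcription factor, stood at 339, 243 and 18.7 CPM in the control, thrombin and PD03 groups (log2 -3.70 for PD03 against thrombin, SE 0.119, adjusted p = 1.7e-27). Egr2, of the same family, stood at 15.9, 6.16 and 0.98 CPM (log2 -2.66, adjusted p = 1.5e-14). The feedback inhibitors Dusp6, an ERK phosphatase, and Spry2 differed by -2.40 (adjusted p = 4.1e-20) and -0.87 (adjusted p = 7.9e-13), and the nuclear receptor Nr4a1 by -1.58 (adjusted p = 1.9e-11).

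With thrombin alone the same list of 10 tested genes had 1 called higher and 2 called lower. Over all tested genes 2.62% and 5.44% were called in those directions. The median log2 fold change was -0.26, and 7 of the 10 had an unadjusted p under 0.05. Egr1 (-0.48, adjusted p = 3.1e-05), Dusp6 (-0.40, adjusted p = 0.00085) and Spry2 (-0.31, adjusted p = 0.00061) were lower, inside the fold threshold. Nr4a1 lay higher (0.32, adjusted p = 0.096). Vgf, a neuropeptide precursor known to respond to neurotrophins, was the gene called higher, from 4.81 to 10.2 CPM (log2 1.09, SE 0.159, adjusted p = 4.4e-07). It stood at 4.71 CPM in the PD03 group (log2 -1.12 against thrombin, adjusted p = 1.1e-07). Egr2 fell (log2 -1.37, adjusted p = 1.2e-11), as did Arc, a neuronal immediate early gene, on few counts (1.71 to 0.501 CPM, log2 -1.78, adjusted p = 0.00063). The Fos call between the PD03 and thrombin groups (log2 -0.61, adjusted p = 0.004) was lost without thrombin replicate 1 (-0.14, adjusted p = 0.44) or PD03 replicate 2 (-0.53, adjusted p = 0.018), and under 9 of the 21 alternatives in all, DESeq2, limma voom and the replicate block among them. Its call against control (-0.82, adjusted p = 0.00019) was lost without control replicate 1 (-0.53, adjusted p = 0.019) and under 4 of the 21 in all, among them DESeq2.

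Other neurotrophic factors moved in both directions. Ptn, pleiotrophin, fell with thrombin from 142 to 39.6 CPM (log2 -1.84, SE 0.051, adjusted p = 2.9e-29) and stood at 129 CPM in the PD03 group (log2 1.71 against thrombin, adjusted p = 1.1e-28). Its relative Mdk, midkine, ran the same way, at 18.8, 10.3 and 21.9 CPM (log2 -0.87 with thrombin, adjusted p = 6.9e-09, and 1.10 between the PD03 and thrombin groups, adjusted p = 3.3e-12). Cntf was called lower for PD03 than for thrombin (log2 -0.86, adjusted p = 0.015), a call lost without thrombin replicate 3 (-0.70, adjusted p = 0.091) or PD03 replicate 3 (-0.72, adjusted p = 0.071). Of the 9 tested factors none was called between the PD03 and control groups by edgeR, DESeq2 or limma voom, although all 9 had an unadjusted p under 0.05. The edgeR share over all tested genes was 8.97% there, so no call among 9 genes is near that share.

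Over all 9 lists, 61 of 74 genes were tested. With thrombin 7 were called higher and 7 lower, which was 23.0% of them, against 8.06% of all tested genes. From thrombin to PD03 9 were higher and 14 lower (37.7%, against 15.9%). Between the PD03 and control groups 3 were higher and 8 lower (18.0%, against 8.97%). The list of Trk and ERK response genes held 7 of the 14 lower and 7 of the 8 lower. Most calls between the PD03 and control groups thus came from that list, and the pooled share does not describe the other lists. The genes had been listed with earlier results of these data known, so these shares describe the lists.

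The genes whose log2 CPM followed each tested gene most closely over the 9 libraries were also noted, as a description over libraries that fall into 3 groups. For Ntrk2 they were Fzd6, a Wnt receptor, Cpxm2, a carboxypeptidase-like protein, and Rcn1, a calcium-binding protein of the endoplasmic reticulum (Pearson's r of 0.995 for each). Cpxm2 stood at 22.5, 11.2 and 71.4 CPM in the control, thrombin and PD03 groups, the same order as Ntrk2. For Bdnf the closest was Plcb3 (r = 0.949), for Gdnf it was Npepps (r = 0.946) and for Ngfr it was Lrig2 (r = 0.962). Their group means spanned less than those of Cpxm2, with Plcb3 at 84.4, 95 and 84.8 CPM, Npepps at 132, 135 and 123 CPM and Lrig2 at 11.3, 10.6 and 12.0 CPM.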

How the data were processed

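The authors sequenced poly(A) RNA (NEBNext Ultra kit, Illumina) and deposited a table with raw read counts and FPKM values per gene for 9 libraries. The deposited counts are whole numbers, not normalized. The deposited FPKM are scaled to library size and gene length. The submitters' processing notes list HISAT2, HTSeq 0.13.5 and the build mRatBN7.2, whereas the study's methods describe fastp, HISAT2, the build Rnor_6.0 and featureCounts. The sources disagree and the choice could change counts of genes with revised models. Neither the annotation release nor the strand setting was given in the sources used here, so reads of overlapping antisense genes could not be separated. Of the genes 2048 carry no symbol.

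Groups came from the sample titles. Genes passing edgeR's filterByExpr (minimum count 10) were TMM scaled and tested in 1 quasi-likelihood fit over all 9 libraries (edgeR 4.0.16, R 4.3.3), with Benjamini-Hochberg adjustment over 13256 genes. A gene was called at an adjusted p below 0.05 when its log2 fold change also exceeded 0.58 in size, the threshold of the study's methods. CPM use TMM-scaled library sizes. Intervals are 95%, and floors are 3 counts over a group. The biological coefficient of variation was 4.28%. Replicate pairs differed by more than sampling noise (chi-square divided by its degrees of freedom, 1.81 to 3.88). Alternatives used DESeq2 1.42.0 and limma 3.58.1, other scaling, filters and thresholds, FPKM with 1 or 0.1 added, a replicate block and leaving out each library. They also used edgeR's glmTreat, which tests for a change beyond log2 0.58 in place of any change. The scripts were tested on simulated data.

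The 6 genes and the lists were chosen with earlier results of these data known. Genes outside the 6 were named if called in any comparison with at least 1 CPM in the highest group, up to the 20 with the largest change. Ligands and receptors of both families could also be named, as could the 3 genes most correlated with each tested one. Some genes that this rule covers are not reported here.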

Additional observations from a re-analysis of the deposited data

How the results depend on the processing

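Each value was recomputed under up to 21 alternatives. The tested genes called between the PD03 and control groups stayed at 1 under all 21. The 2 called between the thrombin and control groups became 1 with glmTreat, 0 with a log2 threshold of 1, 0 with FPKM plus 1 and 1 with FPKM plus 0.1, and ran from 1 to 2 with single libraries left out. The 2 called between the PD03 and thrombin groups became 1 with a mean count of at least 50 (which drops Ngfr and Gdnf), 1 with DESeq2, 1 with glmTreat, 1 with a log2 threshold of 1 and 1 with FPKM plus 1, became 3 with RLE scaling, library totals, no filter on low counts, limma voom and no fold threshold, and ran from 1 to 3 with single libraries left out. Over all genes, the calls with thrombin, from thrombin to PD03 and from control to PD03 numbered 1068, 2110 and 1189, became 460, 1051 and 499 with glmTreat, 3808, 6608 and 5289 with no fold threshold, 505, 935 and 519 with a log2 threshold of 1, and 543, 1254 and 676 with FPKM plus 1. Signs turned for values that were not called: Gdnf between the thrombin and control groups ran from -0.079 to 0.446 with single libraries left out, with the negative value without thrombin replicate 1, and Ngfr from -0.887 to 0.091, with 0.028 without control replicate 1 and 0.091 without thrombin replicate 1. Scaling by library totals shifted the median of all genes by -0.099 (log2) for PD03 against thrombin and -0.116 for PD03 against control, and the share of called genes that were higher from 60.4% to 46.5% and from 54.6% to 34.1%. Ntrk2 kept its directions, with log2 changes from -1.15 to -0.35, 1.21 to 2.81 and 0.86 to 1.75 over all alternatives.

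Same-numbered libraries of different groups did not deviate together (correlations from -0.046 to 0.052 in 9 pairs, and -0.056 to 0.055 in 18 pairs of different number). No pairing by number was detected, which does not show how the samples were prepared. With the replicate block the genes called numbered 2, 2 and 1, and all genes 1067, 2103 and 1187, in the same order of comparisons. The tests of Bdnf, Gdnf and Ngfr rested on 11 to 106 counts per library, and Ntf3 and Ntrk3 had at most 7. Gene counts do not separate isoforms, and the causes of the changes between settings were not tested.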
